A study of Mus musculus with 8 samples.

Results

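The genes described here encode the non-visual G protein-coupled receptor kinases (GRKs) and the beta-arrestins. They were taken by name, as Grk2, Grk3, Grk4, Grk5, Grk6, Arrb1 and Arrb2, and are 7 of the 47937 gene IDs in the count tables. The rule that names them uses no measured value, although results of these data were known when they were proposed. All 7 passed the filter on low counts, so that each has a fitted value in every comparison.

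GRKs phosphorylate G protein-coupled receptors (GPCRs) that have bound their ligand. The phosphorylated receptor then binds an arrestin, which uncouples it from its G protein and links it to clathrin and its adaptor AP-2 for uptake into the cell. GRK2 and GRK3 carry a domain that binds G protein beta-gamma subunits and are recruited to active receptors, whereas GRK4, GRK5 and GRK6 are held at the membrane by their C-terminal regions. GRK1 and the visual arrestins serve photoreceptors. In dendritic cells (DCs) the receptors concerned include chemokine receptors such as CCR7, which guides mature DCs to lymphatic vessels.

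RNA of bone marrow-derived DCs (BMDCs) of mice was sequenced in 8 libraries, 2 in each of 4 groups. WT and 3xGrk-/- cells were either left unstimulated or treated with lipopolysaccharide (LPS), a bacterial cell wall component that matures DCs, for 1 day at 20 ng/ml. The study describes its 3xGrk-/- BMDCs as coming from Grk3-/- mice that also carried Grk6 fl/fl and Grk2 fl/fl alleles and Vav-iCre, in which Cre acts from blood cell precursors onwards while Grk3 is lost in the germline, and the WT controls were Cre-negative and matched for age and sex. The sample labels give the genotype only as WT or KO and do not name the cross. Both genotypes came from adult mice, and both were grown with GM-CSF, a culture that gives DC-like and macrophage-like cells side by side. The methods describe the RNA as isolated in technical triplicates, whereas the labels list 2 libraries per group, and nothing in the sources used here says that the libraries of a group came from separate cultures or animals. The p-values therefore measure the spread between these libraries, which may be technical only.

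The sequences of the family decide whether counts can be told apart between its members. Over the longest coding sequences, Grk2 and Grk3 shared 74.7% of their aligned bases, Grk5 and Grk6 69.6%, and Arrb1 and Arrb2 73.6%. No window of 50 bases in any transcript of a member occurred in a transcript of another member. Windows shared with other genes made up between 0.0458% (Grk3) and 3.25% (Grk4) of a member's windows. For each of the 3 closest pairs, the stretch that holds the longest run of identical coding bases is shown from 5′ to 3′ on the coding strand of GENCODE M21 transcripts, with the run in capitals and up to 15 bases on either side in lower case. The run was 30 bases long in Grk2 and Grk3, 20 in Grk5 and Grk6 and 18 in Arrb1 and Arrb2.
Grk2: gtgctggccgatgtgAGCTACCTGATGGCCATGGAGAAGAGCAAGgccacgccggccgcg
Grk3: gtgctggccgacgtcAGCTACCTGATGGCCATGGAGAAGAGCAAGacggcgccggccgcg
Grk5: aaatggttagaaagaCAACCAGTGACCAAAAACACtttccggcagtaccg
Grk6: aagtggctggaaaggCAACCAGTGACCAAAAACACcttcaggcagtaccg
Arrb1: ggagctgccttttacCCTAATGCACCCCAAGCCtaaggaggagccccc
Arrb2: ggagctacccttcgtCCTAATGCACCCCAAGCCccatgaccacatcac

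On GRCm38, the Grk2 stretch lies in coding exon 1 on the minus strand at chr19:4305937-4305996. The Grk3 stretch lies in exon 1 of that gene at chr5:113015402-113015461, also on the minus strand. The stretches of Grk5 (chr19:61069383-61072469) and Grk6 (chr13:55451408-55451555) both run from exon 6 into exon 7 on the plus strand, so that their coordinates include an intron. Those of Arrb1 (chr7:99598503-99598550, exon 14) and Arrb2 (chr11:70439674-70439721, exon 13) lie within 1 exon each, on the plus strand. The genes themselves span 20222 bases for Grk2, 105310 for Grk3, 94927 for Grk4, 206220 for Grk5, 15856 for Grk6, 71306 for Arrb1 and 8194 for Arrb2. Except for a miRNA gene inside Arrb2 that had 0 counts in every library, no other annotated gene shared exonic bases with a member.

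The total count on genes was 4713305 in the shallowest and 6933358 in the deepest library. In the unstimulated comparison, 22.1% of the 12000 genes tested were higher and 22.7% lower in 3xGrk-/- cells at an adjusted p under 0.05 (edgeR quasi-likelihood test, Benjamini-Hochberg adjustment over all genes tested). After LPS, the shares were 24.7% higher and 24.0% lower of 11830 genes. A member that passed the threshold is thus one of many. Scaling by library size alone, in place of the TMM factors, turned the unstimulated split of 2647 higher and 2722 lower genes into 1968 and 3525, and the LPS-stimulated split of 2919 and 2835 into 2474 and 3572. Replicate 2 of LPS-stimulated 3xGrk-/- cells held 149727 counts of Gm42418, a gene that overlaps ribosomal RNA, against 26853 in replicate 1. The common biological coefficient of variation was 0.0306 in the unstimulated and 0.0573 in the LPS-stimulated comparison. The 2 libraries of LPS-stimulated 3xGrk-/- cells stood further apart than those of any other group, with a mean chi-square of 9.02 per gene against 1.59 to 3.07 in the other groups. With a coefficient of 0.4 set in its place, Grk2 after LPS was the only member whose difference between genotypes passed the threshold.

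**Figure D1:**
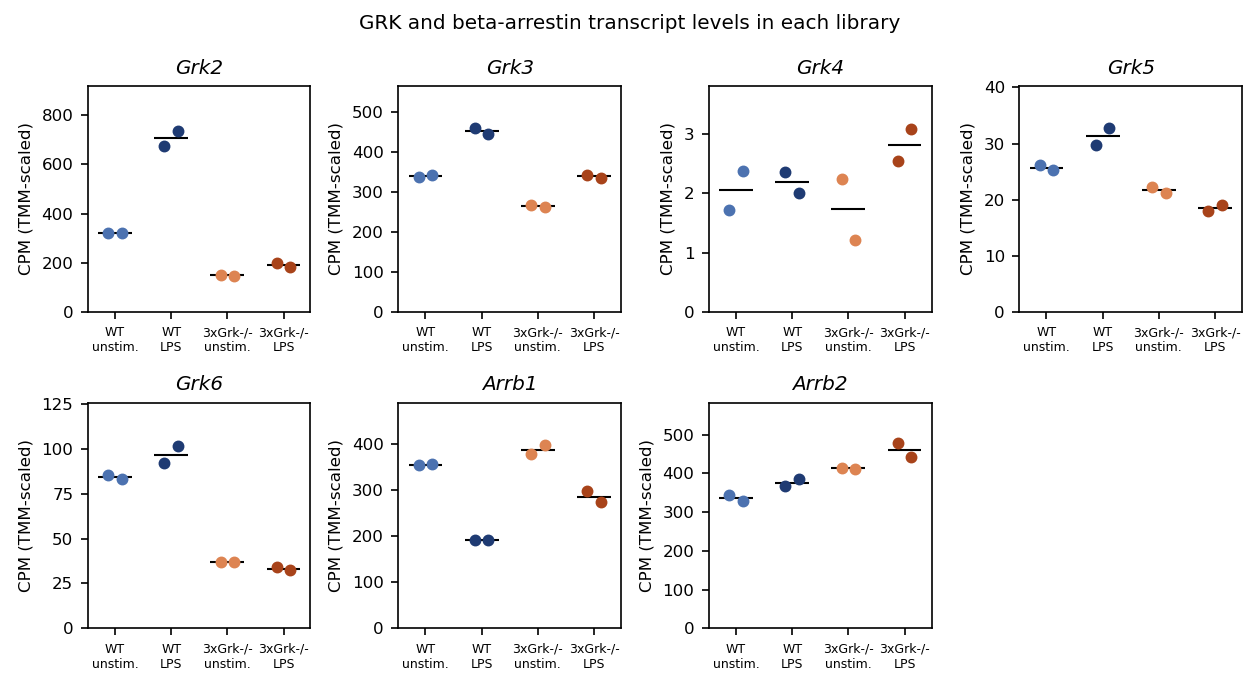
Transcript level of each GRK and beta-arrestin gene in CPM (counts scaled to a common library total with TMM factors over all 8 libraries, on a linear axis from 0), by group. Each point is 1 library and each line the mean of 2; Grk2 and Grk6 are lower in every 3xGrk-/- library than in every WT library, and Arrb2 is higher.

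The 3 targeted kinases were compared first. Grk2, Grk3 and Grk6 transcripts were lower in 3xGrk-/- BMDCs in both states, but all 3 were still counted in every 3xGrk-/- library. Grk6 was reduced most in unstimulated and Grk2 most in LPS-stimulated cells, while Grk3 kept 78.1% of its WT level without and 75.0% with LPS. The counts are per gene, and which exons the alleles remove is not given in the sources used here. Reads from exons that remain may be part of each count, which was not tested, and the counts do not measure how much intact transcript or protein was left.

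Grk2, the kinase that is recruited by free beta-gamma subunits and acts on many GPCRs, had 320.2 and 320.9 CPM (counts scaled to a common library total) in the unstimulated WT libraries and 151.2 and 146.2 in the 3xGrk-/- ones. After LPS the libraries had 677.0 and 736.5 CPM in WT and 198.7 and 183.7 in 3xGrk-/- cells. Every 3xGrk-/- value lay below every WT value, also across stimulations. The level in 3xGrk-/- cells was 46.4% of WT in the unstimulated state (log2 fold change −1.11 ± 0.05, standard error throughout, adjusted p = 6.06e-114). After LPS it was 27.0% of WT (log2 fold change −1.89 ± 0.07, adjusted p = 9.39e-16).

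Grk3, the closest relative of Grk2, had 337.6 and 340.7 CPM in unstimulated WT and 267.2 and 262.9 in unstimulated 3xGrk-/- libraries. The LPS-stimulated libraries had 460.1 and 443.7 CPM in WT and 342.8 and 335.1 in 3xGrk-/- cells. Within a stimulation the genotypes did not overlap, but in CPM LPS-stimulated 3xGrk-/- cells reached the level of unstimulated WT cells. This did not hold in TPM (counts per gene length, scaled to a common total per library with no TMM factor). There the LPS-stimulated 3xGrk-/- libraries had 112.9 and 98.8, below the unstimulated WT libraries with 133.5 and 134.5. The log2 fold change between genotypes was −0.36 ± 0.04 without LPS (adjusted p = 6.50e-15) and −0.42 ± 0.06 with it (adjusted p = 6.00e-06), or 78.1% and 75.0% of WT. Of the unstimulated fit, 36.9% of the genes tested had a larger change in either direction.

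Grk6, which is held at the membrane by lipid modification, had 85.4 and 83.4 CPM in unstimulated WT libraries against 36.95 and 36.99 in 3xGrk-/- ones. After LPS the values were 91.8 and 101.3 CPM against 33.99 and 32.59. The lowest WT library thus lay above the highest 3xGrk-/- library by more than the distance between any libraries of 1 genotype. The remaining level was 43.9% of WT in unstimulated cells (log2 fold change −1.19 ± 0.08, adjusted p = 7.50e-43) and 34.4% in LPS-stimulated cells (−1.54 ± 0.10, adjusted p = 2.52e-11).

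Neither of the kinases that were not targeted, Grk5 and Grk4, passed the test as higher in 3xGrk-/- cells. Grk5, a membrane-bound kinase of the Grk4 group, was lower after LPS. It had 26.2 and 25.2 CPM in unstimulated WT and 22.3 and 21.2 in unstimulated 3xGrk-/- libraries. In LPS-stimulated cells the values were 29.8 and 32.8 CPM in WT and 18.0 and 19.0 in 3xGrk-/- cells. The libraries of the genotypes did not overlap in either state. The unstimulated difference did not pass the threshold (log2 fold change −0.24, 95% interval −0.49 to 0.01, adjusted p = 0.124), and passed it only when libraries were scaled by library size alone (adjusted p = 0.0285). Over the 12 alternatives that estimate the spread from the libraries, its adjusted p ran from 0.0285 to 0.625. The LPS-stimulated level was 59.0% of WT (log2 fold change −0.76 ± 0.13, adjusted p = 5.45e-05), with between 99 and 212 counts of Grk5 per library.

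Grk4, a kinase best known from testis and kidney, was low, with 7 to 19 counts per library. Unstimulated libraries had 1.72 and 2.38 CPM in WT and 2.24 and 1.22 in 3xGrk-/- cells, and the genotypes overlapped. After LPS the WT libraries had 2.36 and 2.01 CPM and the 3xGrk-/- libraries 2.55 and 3.08. A difference was not detectable at this depth, as the 95% intervals of the log2 fold change ran from −1.07 to 0.58 without LPS and from −0.34 to 1.10 with it (adjusted p = 0.670 and 0.419). The sign of the unstimulated estimate turned when replicate 2 of either genotype was left out, to 0.04 without WT replicate 2 and 0.10 without 3xGrk-/- replicate 2.

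Of the 7 genes, 3 were lower (Grk2, Grk3, Grk6) and 2 higher (Arrb1, Arrb2) in unstimulated 3xGrk-/- cells, and 4 were lower (Grk5 in addition) and 2 higher after LPS. Over all genes tested, 22.1% were higher and 22.7% lower without LPS, and 24.7% and 24.0% with it. The beta-arrestins, which bind phosphorylated receptors, were thus the members with more transcript in 3xGrk-/- cells. For Arrb2 the libraries had 343.5 and 327.4 CPM in unstimulated WT and 414.5 and 412.1 in unstimulated 3xGrk-/- cells. In LPS-stimulated cells they had 367.8 and 384.3 CPM in WT and 478.1 and 441.8 in 3xGrk-/- cells. The 4 CPM values of 3xGrk-/- cells all exceeded the 4 WT values. In TPM, replicate 2 of LPS-stimulated 3xGrk-/- cells had 398, below the LPS-stimulated WT libraries (403 and 401) and 1 of the unstimulated ones (415). Without Gm42418 and the mitochondrial genes in the total, the lower LPS-stimulated 3xGrk-/- library had 422. The LPS-stimulated WT libraries then had up to 421 and the unstimulated ones up to 437. With each gene counted by its longest protein-coding transcript, the lower LPS-stimulated 3xGrk-/- library had 452. The WT libraries then had up to 439 with and 449 without LPS. The level was 123% of WT in unstimulated (log2 fold change 0.30 ± 0.04, adjusted p = 3.61e-12) and 122% in LPS-stimulated cells (0.29 ± 0.06, adjusted p = 0.000506). The LPS-stimulated call was lost without 3xGrk-/- replicate 1 (log2 fold change 0.24, adjusted p = 0.0571, in a range of 4.80e-06 to 0.0571 over 12 such alternatives).

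Arrb1 differed little between genotypes without LPS and more with it. The unstimulated libraries had 355.4 and 356.7 CPM in WT and 379.1 and 399.0 in 3xGrk-/- cells. The LPS-stimulated ones had 192.9 and 191.1 CPM in WT and 299.0 and 274.3 in 3xGrk-/- cells. In both states the genotypes were apart, and in LPS-stimulated cells by several times the distance between libraries. The unstimulated difference was a log2 fold change of 0.13 ± 0.04 (adjusted p = 0.00688). It did not pass the threshold in DESeq2 (adjusted p = 0.0827), with library size alone (0.443), in 1 fit of all 8 libraries (0.0627) or without 3xGrk-/- replicate 2 (0.149), and its adjusted p ran from 0.00258 to 0.443 over 12 such alternatives. The LPS-stimulated level was 149% of WT (log2 fold change 0.58 ± 0.06, adjusted p = 1.88e-07).

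**Figure D2:**
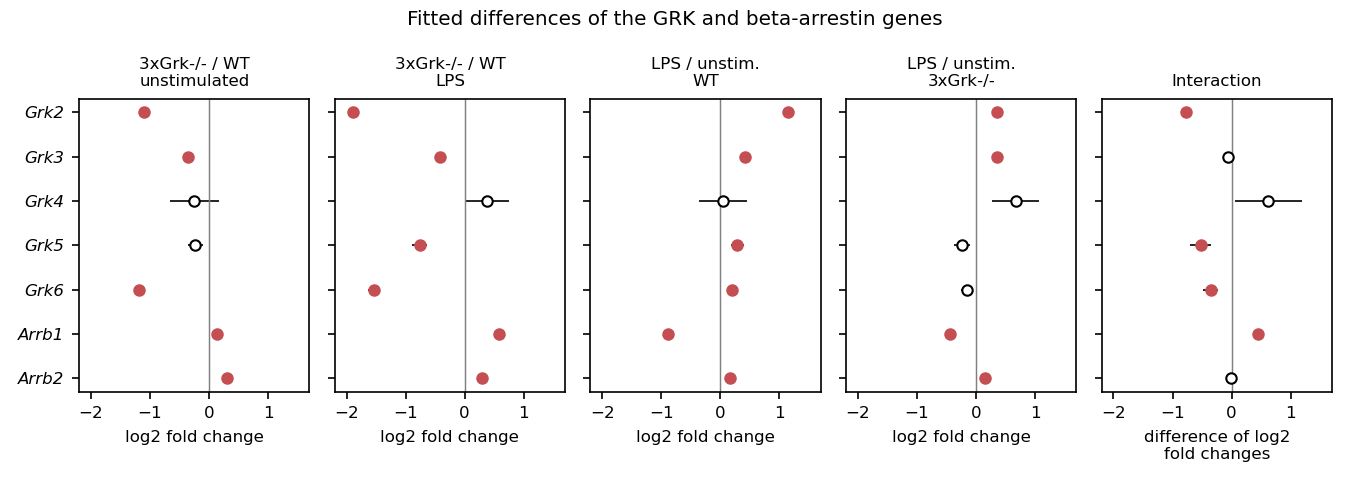
Fitted log2 fold change of each gene (x axis) in the comparisons of genotypes and of stimulations, and the difference of fold changes (interaction, right). Bars are 1 standard error, red points had an adjusted p under 0.05 and open points did not; Grk2 lies farthest to the left in LPS-stimulated 3xGrk-/- against WT, at −1.89.

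The response to LPS was taken from 1 fit of all 8 libraries. In WT cells 29.5% of the 12541 genes tested rose and 30.8% fell, and in 3xGrk-/- cells 28.0% rose and 27.4% fell. Of the members, 5 rose and 1 fell in WT cells, and 3 rose and 1 fell in 3xGrk-/- cells. Scaling by library size alone shifted all responses by −0.22 on the log2 scale in both genotypes, and turned the split of rising and falling genes from 3702 and 3859 to 2443 and 5420 in WT and from 3510 and 3435 to 2245 and 5200 in 3xGrk-/- cells. Small responses are therefore given with their value on that scale.

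Grk2 showed the largest response of the family in WT cells, where it rose to 221% of the unstimulated level (log2 fold change 1.14 ± 0.05, adjusted p = 1.32e-16). In 3xGrk-/- cells it rose to 128% (0.36 ± 0.06, adjusted p = 1.13e-05). Grk3 rose to 133% in WT cells (0.41 ± 0.05, adjusted p = 5.19e-08) and to 128% in 3xGrk-/- cells (0.35 ± 0.05, adjusted p = 1.33e-06). Both kinases rose in both genotypes, also with library size alone, where the lowest log2 fold changes were 0.14 for each in 3xGrk-/- cells. In TPM the rise in 3xGrk-/- cells was seen in replicate 1 but not in replicate 2. Replicate 2 had 105 TPM of Grk2 and 98.8 of Grk3 after LPS, below both unstimulated libraries (113 and 107 for Grk2, 103 and 99.5 for Grk3). This depended on the TPM setting. Without Gm42418 and the mitochondrial genes in the total, the lower LPS-stimulated 3xGrk-/- library had 111.6 of Grk2 (unstimulated 113.2 and 118.1) and 104.9 of Grk3 (104.8 and 107.4). By longest protein-coding transcript it had 102.9 of Grk2 (100.9 and 105.1) and 97.1 of Grk3 (93.8 and 95.9).

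Grk5 and Grk6 rose slightly in WT cells, with log2 fold changes of 0.29 ± 0.11 (adjusted p = 0.0290) and 0.20 ± 0.08 (adjusted p = 0.0241). With library size alone the value of Grk5 was 0.08 (adjusted p = 0.585) and that of Grk6 turned to −0.017 (adjusted p = 0.863). The calls held in 10 of 16 such alternatives for Grk5 and in 9 of 16 for Grk6, with ranges of the adjusted p of 0.0189 to 0.585 and 0.00499 to 0.863, and DESeq2 called neither (0.264 and 0.209). Without a filter on low counts both calls were lost (0.0820 and 0.0715), and with at least 10 counts in every library that of Grk6 (0.0547). Leaving out WT replicate 1 or 2 of the unstimulated cells, or WT replicate 2 of the LPS-stimulated cells, also ended both calls, with adjusted p of 0.0636, 0.148 and 0.195 for Grk5 and 0.0702, 0.137 and 0.224 for Grk6. In 3xGrk-/- cells the estimates were −0.23 ± 0.13 for Grk5 (adjusted p = 0.133) and −0.15 ± 0.10 for Grk6 (adjusted p = 0.211). With library size alone both passed the threshold there as lower, at −0.45 (adjusted p = 0.00397) and −0.37 (adjusted p = 0.00264).

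Arrb1 fell in both genotypes, with log2 fold changes of −0.89 ± 0.06 in WT cells (adjusted p = 6.57e-14) and −0.44 ± 0.05 in 3xGrk-/- cells (adjusted p = 7.59e-08). Its level after LPS was 53.9% of the unstimulated level in WT and 73.7% in 3xGrk-/- cells. Arrb2 moved the other way and by less, with 0.17 ± 0.05 in WT (adjusted p = 0.00924) and 0.15 ± 0.05 in 3xGrk-/- cells (adjusted p = 0.0153), but its sign turned with library size alone, to −0.049 in WT and −0.064 in 3xGrk-/- cells. The Arrb2 call in WT was lost without replicate 2 of unstimulated WT cells (0.13, adjusted p = 0.112, in a range of 0.000757 to 0.460 over 16 such alternatives). In 3xGrk-/- cells it was lost without unstimulated replicate 1 (adjusted p = 0.0662), unstimulated replicate 2 (0.0863) or LPS-stimulated replicate 1 (0.244), in a range of 0.00133 to 0.328 over 16 such alternatives. For Grk4 the estimates were 0.05 ± 0.41 in WT (adjusted p = 0.928) and 0.67 ± 0.40 in 3xGrk-/- cells (adjusted p = 0.156), and that in WT was −0.16 with library size alone.

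Whether the genotypes responded differently was tested as the interaction, in which 16.5% of 12541 genes had a more positive and 16.0% a more negative response in 3xGrk-/- cells. Of the members, 3 (Grk2, Grk5, Grk6) had a more negative and 1 (Arrb1) a more positive value. For Grk2 the difference of log2 fold changes was −0.78 ± 0.08 (adjusted p = 1.08e-08). For Arrb1 it was 0.45 ± 0.08 (adjusted p = 4.11e-05), as its fall with LPS was smaller in 3xGrk-/- cells. The values of Grk5 (−0.52 ± 0.17, adjusted p = 0.0201) and Grk6 (−0.35 ± 0.13, adjusted p = 0.0333) did not hold under many alternatives. Grk5 lost its call without WT replicate 2 of the unstimulated (adjusted p = 0.0797) or LPS-stimulated cells (0.0715), and without 3xGrk-/- replicate 1 of the unstimulated (0.0846) or LPS-stimulated cells (0.0684), and in DESeq2 (0.239), and kept it in 10 of 15 such alternatives, in a range of 0.0104 to 0.239. Grk6 lost its call without either replicate of unstimulated WT cells (adjusted p = 0.0748 and 0.113), without replicate 2 of LPS-stimulated WT cells (0.111), and without any of the 4 libraries of 3xGrk-/- cells (between 0.0639 and 0.135). It also lost it in DESeq2 (0.233), with no filter on low counts (0.0699) and with at least 10 counts required in every library (0.0517), and kept it in 5 of 15 such alternatives, in a range of 0.00898 to 0.233. The intervals of the others were −0.20 to 0.08 for Grk3 (adjusted p = 0.586), −0.16 to 0.14 for Arrb2 (adjusted p = 0.927) and −0.50 to 1.75 for Grk4 (adjusted p = 0.444).

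Levels were compared between genes per length, as TPM over the joined exons of each gene in GENCODE M21. In unstimulated WT cells the order was Arrb2 (405 ± 14.3 TPM; SD, n = 2), Grk2 (246 ± 0.0755), Grk3 (134 ± 0.693), Arrb1 (109 ± 0.143), Grk6 (69.0 ± 1.25), Grk5 (12.5 ± 0.343) and Grk4 (1.46 ± 0.332). No neighbours in that order overlapped. Arrb2 was above 98.3% of the 19093 genes with a count in these libraries, Grk5 above 57.9% and Grk4 above 29.6%. The family thus ran from some of the most abundant transcripts of these cells to a low one.

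In LPS-stimulated WT cells Grk2 came first, with 480 ± 11.9 TPM, above Arrb2 with 402 ± 1.51. Grk6 (69.8 ± 2.44) there lay above Arrb1 (52.2 ± 2.17). In unstimulated 3xGrk-/- cells Arrb2 (481 ± 6.75 TPM) was followed by Arrb1 (115 ± 3.05), Grk2 (110 ± 3.71) and Grk3 (101 ± 2.14), none of which overlapped with its neighbour. After LPS, Grk2 (116 ± 15.5 TPM) and Grk3 (106 ± 9.98) of 3xGrk-/- cells overlapped across libraries, as the higher library of Grk3 (113 TPM) lay above the lower one of Grk2 (105), but within each library Grk2 was above Grk3. Both ranked behind Arrb2 (440 ± 58.8) and ahead of Arrb1 (69.8 ± 9.69). Grk6, Grk5 and Grk4 filled the last 3 places in 3xGrk-/- cells of both states, with 29.1 ± 0.266, 10.2 ± 0.467 and 1.19 ± 0.511 TPM without LPS and 21.5 ± 2.32, 7.10 ± 0.292 and 1.57 ± 0.0891 with it.

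**Figure D3:**
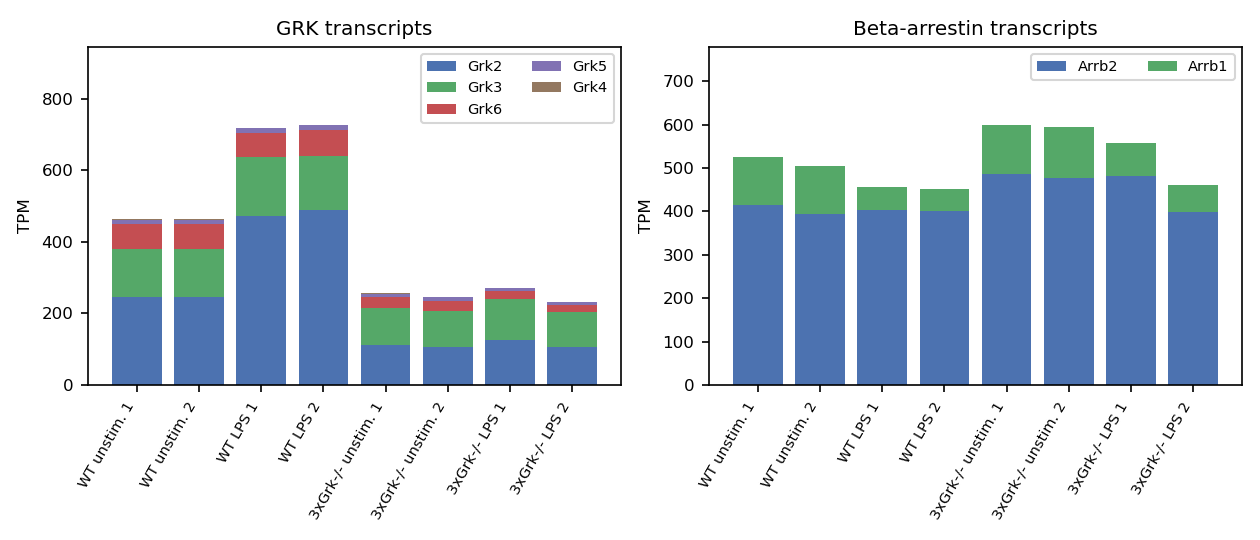
TPM of the GRK genes (left) and of the beta-arrestin genes (right), stacked for each library on linear axes from 0. The GRK sum is 463 TPM in unstimulated and 722 in LPS-stimulated WT cells on average, and 252 in 3xGrk-/- cells of both states; Grk4 is too low to be seen.

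Summed over the 5 GRK genes, the TPM was 463 ± 0.497 in unstimulated WT and 252 ± 7.10 in unstimulated 3xGrk-/- cells (SD, n = 2). After LPS it was 722 ± 4.98 in WT and 252 ± 28.0 in 3xGrk-/- cells. The sum of 3xGrk-/- cells was thus 54.4% of that of WT cells without and 34.9% with LPS. Counting each gene by its longest protein-coding transcript instead gave 54.3% and 35.7%, and leaving Gm42418 and the mitochondrial genes out of the total gave 54.1% and 35.0%. Of the WT sums, 449 TPM without and 708 with LPS came from Grk2, Grk3 and Grk6, the genes targeted in the knockout. A lower sum was therefore largely set by the design. The reads left of these genes may not come from intact transcripts.

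The make-up of the sum differed as well. Grk2 supplied 53.1% ± 0.0733 of the GRK sum in unstimulated and 66.4% ± 1.18 in LPS-stimulated WT cells, but 43.7% ± 0.241 and 46.0% ± 1.04 in 3xGrk-/- cells. Grk3 supplied 28.9% ± 0.181 and 21.9% ± 1.48 in WT cells and 40.1% ± 0.281 and 42.0% ± 0.707 in 3xGrk-/- cells. Grk2 and Grk3 were therefore close to each other in 3xGrk-/- cells and far apart in WT cells. Grk6 supplied 14.9% ± 0.255 and 9.66% ± 0.271 in WT and 11.6% ± 0.221 and 8.53% ± 0.0264 in 3xGrk-/- cells, and Grk5 between 1.86% and 4.06% in the 4 groups.

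The beta-arrestin sum was 514 ± 14.2 TPM in unstimulated WT and 597 ± 3.70 in unstimulated 3xGrk-/- cells. After LPS it was 454 ± 3.67 in WT and 509 ± 68.5 in 3xGrk-/- cells. Arrb2 made up most of it everywhere, from 78.7% ± 0.613 in unstimulated WT to 88.5% ± 0.384 in LPS-stimulated WT cells, with 80.7% ± 0.632 and 86.3% ± 0.0611 in the 3xGrk-/- groups. The ratio of beta-arrestin to GRK sums was 1.11 ± 0.0294 in unstimulated and 0.628 ± 0.00942 in LPS-stimulated WT cells. In 3xGrk-/- cells it was 2.37 ± 0.0522 and 2.02 ± 0.0476, so that all 4 libraries of these cells had a higher ratio than the WT libraries. As the GRK sum comes mostly from the targeted genes, this too was largely set by the design. The sums and ratios are given as values, without a test.

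Markers of several cell types moved with these values. In bulk RNA, fewer cells of a type and less RNA per cell cannot be told apart. The summed level of 11 macrophage and monocyte markers was 2351 to 2372 CPM in unstimulated WT and 8593 to 8623 in unstimulated 3xGrk-/- libraries. After LPS it was 688 to 705 CPM in WT and 7345 to 7461 in 3xGrk-/- libraries. Most of the unstimulated sum was the lysozyme gene Lyz2, with a mean of 1330 CPM in WT and 7080 in 3xGrk-/- cells. Of these 11 markers, 6 were higher in unstimulated 3xGrk-/- cells, such as Csf1r (log2 fold change 0.88) and Cd68 (2.09), and 4 were lower, namely Fcgr1 (−0.64) and the complement genes C1qa (−1.61), C1qb (−1.94) and C1qc (−1.88). After LPS 11 of 11 were higher, and none was at 0 in a group. The sum of 10 DC markers, most of it from Cd74 and the MHC class II genes H2-Aa, H2-Ab1 and H2-Eb1, was 25904 to 26141 CPM in unstimulated WT and 13290 to 13573 in unstimulated 3xGrk-/- cells, and 16423 to 17990 against 14193 to 14454 after LPS. Of these, 3 (Flt3, Ccr7 and Itgax) were higher and 7 lower without LPS, and 2 (Flt3 and Itgax) higher and 8 lower with it, with Zbtb46 and Flt3 detected in every group.

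Other cell types moved too. The sum of 4 eosinophil markers was 919 to 975 CPM in unstimulated WT and 53.0 to 56.4 in unstimulated 3xGrk-/- libraries, and 898 to 970 against 35.8 to 41.8 after LPS. Epx and Prg2 were lower in both states and Siglecf with LPS only. Prg3, with 93 to 175 counts in WT and 2 or 3 in 3xGrk-/- libraries, passed the filter on low counts only through the WT libraries. Its call is no result. The sum of 8 neutrophil markers was 698 to 742 CPM against 515 to 532 without LPS and 335 to 391 against 186 to 202 with it. Ltf, Camp, S100a8 and S100a9 were lower in both states and Ngp with LPS only, and none was higher. Mpo, with 11 to 29 counts in WT and 1 to 7 in 3xGrk-/- libraries, passed the filter only through the WT libraries and is left out. The 4 mast cell and basophil markers summed to between 30.2 and 49.8 CPM in all libraries, and Gata2 was higher in 3xGrk-/- cells without LPS. Ms4a2 had 10 to 23 counts in WT and 1 to 10 in 3xGrk-/- libraries, and Mcpt8 had 26 to 33 and 9 to 13. As these 2 passed the filter on low counts largely through the WT libraries, no count of lower members is given. The 4 stromal markers summed to 0.191 to 6.89 CPM in all libraries but those of LPS-stimulated 3xGrk-/- cells, which had 127 to 138. As the filter on low counts was passed through those libraries, no count of members called is given. Of that sum most was Dcn, which was at 0 in both unstimulated groups. The T and NK cell and erythroid lists stayed below 1.15 CPM in sum in every library, and Cd3e and Hba-a1 were each at 0 in at least 1 group. The part that any of these cell types had in the differences of the GRK and beta-arrestin genes was not tested.

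The genes around the family came from 6 lists with 36 genes, of which 29 were tested without and 30 with LPS. Dnm1, which passed the filter on low counts only through the LPS-stimulated 3xGrk-/- libraries, is left out of the counts and medians, so that 29 genes remain with LPS too. In unstimulated 3xGrk-/- cells 13 were higher and 4 lower than in WT (median log2 fold change 0.13, against −0.0017 for all genes tested). After LPS, 6 were higher and 6 lower (median 0.016, against −0.0066). Over all genes tested, the shares were 22.1% higher and 22.7% lower without LPS and 24.7% higher and 24.0% lower with it.

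**Figure D4:**
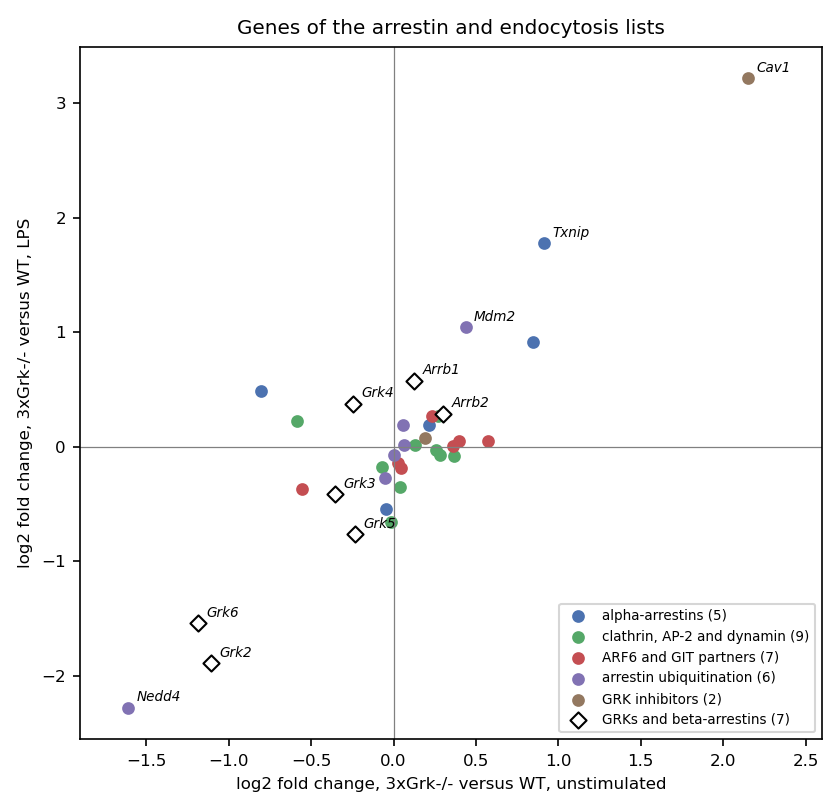
Log2 fold change between 3xGrk-/- and WT cells without LPS (x axis) and with LPS (y axis) for the 29 genes of the lists tested in both and for the 7 GRK and beta-arrestin genes (diamonds). Genes of the lists with a log2 fold change over 1 in size are named; Nedd4 lies lowest, at −1.61 and −2.28, and Cav1 highest, at 2.15 and 3.22.

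The visual members were at or near 0. Grk1, the rhodopsin kinase, had 0 counts in the 4 WT libraries, and 2, 0, 1 and 6 in the 3xGrk-/- ones. Arr3, cone arrestin, had 0 counts in every library, which allows up to 3 counts in each, and Sag, rod arrestin, had 2 to 7. None of these 3 was tested.

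Among the alpha-arrestins, relatives of the beta-arrestins that recruit ubiquitin ligases to membrane proteins, 2 were higher and 1 lower of 5 tested in each state. Txnip, which also binds thioredoxin and limits glucose uptake, was higher in unstimulated (log2 fold change 0.91, adjusted p = 3.10e-89) and in LPS-stimulated 3xGrk-/- cells (1.78, adjusted p = 2.53e-15). Arrdc4 was also higher, by 0.85 and 0.92. The lower gene was Arrdc3, at −0.80, without LPS and Arrdc1, at −0.54, with it.

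Of the clathrin, AP-2 and dynamin genes, which form and cut off the coated vesicles that take up receptors, 4 of 9 tested were higher and 1 lower without LPS, and 1 of 9 was higher and 2 lower with it, leaving out Dnm1. The clathrin light chain Cltb was lower without LPS (log2 fold change −0.59), and the other light chain, Clta, with it (−0.66, adjusted p = 3.00e-08). The AP-2 subunits Ap2s1 (0.37) and Ap2m1 (0.27) were among those higher without LPS, as was the ubiquitous dynamin Dnm2 (0.28). After LPS, Ap2m1 was higher (0.27) and Ap2b1, the subunit that binds beta-arrestins, lower (−0.35). Dnm1, the neuronal dynamin, had 28 counts in each LPS-stimulated 3xGrk-/- library and 0 to 6 in all others. It passed the filter on low counts only through the libraries in which it is high, so its call is no result.

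For ARF6, its exchange factor and the GIT scaffolds, which bind GRKs and beta-arrestins in receptor uptake, 4 of 7 were higher and 1 lower without LPS, and 1 higher and 2 lower with it. Git1, a scaffold first found as a GRK partner, was higher in unstimulated 3xGrk-/- cells (log2 fold change 0.57, adjusted p = 5.23e-17), as was Nsf (0.40). Arhgef6, a partner of the GIT proteins, was lower in both states, at −0.55 and −0.36. After LPS, Git2 was also lower, at −0.18, and Arhgef7 higher, at 0.27.

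In the list of enzymes that add ubiquitin to beta-arrestins or receptors or remove it, which also holds the ubiquitin-binding adaptor Stam, 1 of 6 was higher and 1 lower in each state. Mdm2, a ubiquitin ligase of beta-arrestin and of p53, was higher by 0.44 without and 1.05 with LPS (adjusted p = 7.24e-16 and 6.52e-12). Nedd4, a ubiquitin ligase of receptors, was lower in both states (log2 fold change −1.61 and −2.28, adjusted p = 2.49e-265 and 2.62e-14). With LPS it fell in both genotypes as well, with log2 fold changes of −1.74 in WT and −2.41 in 3xGrk-/- cells.

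The last list held proteins that bind and inhibit GRKs. Cav1, caveolin-1, had 16 to 39 counts in the WT libraries, 73 to 89 in unstimulated and 314 to 340 in LPS-stimulated 3xGrk-/- libraries. Between genotypes the log2 fold change was 2.15 in unstimulated (adjusted p = 1.17e-18) and 3.22 in LPS-stimulated cells (adjusted p = 6.37e-14). Pebp1, a Raf and GRK2 binding protein, was higher by 0.19 without LPS (adjusted p = 0.0261), with 0.08 after LPS (adjusted p = 0.580). Rcvrn, the inhibitor of GRK1 in photoreceptors, had 0 or 1 count in each library and was not tested.

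In the interaction, 5 of the 29 genes of the lists, Dnm1 left out, had a more positive and 10 a more negative response to LPS in 3xGrk-/- cells (median −0.11, against 0.0057 for all genes), beside 16.5% and 16.0% of all genes. The clathrin, AP-2 and dynamin list accounted for 5 of the 10, among them Clta (−0.64) and Ap2s1 (−0.45), and the ARF6 and GIT list for 3, among them Git1 (−0.52). The 5 with a more positive value were Arrdc3 (1.29), Cav1 (1.06), Txnip (0.87), Cltb (0.81) and Mdm2 (0.61). In the responses themselves, 12 genes rose and 8 fell in WT cells (median 0.11, against −0.015), beside 29.5% and 30.8% of all genes. In 3xGrk-/- cells 8 rose and 9 fell (median 0.010, against −0.0072), beside 28.0% and 27.4%.

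For each member the genes with the most similar pattern over the 8 libraries were sought among about 9149 genes with a mean log2 CPM of at least 3. The measure was Pearson's r of log2 CPM, given here as a description. The libraries fall into 4 groups, so that r mostly compares group means, and many genes reach high values. Grk2 was followed most closely by Npr1 (r = 0.998), Mrtfa (0.995) and Slc27a3 (0.995), and Grk3 by 2700081O15Rik (0.997), Ube2h (0.993) and Nsmaf (0.993). Those nearest to Grk6 were Napsa (0.999), the eosinophil peroxidase gene Epx (0.994) and Tceanc2 (0.992). Grk5 was followed by Oat (0.988), Nrros (0.987) and Dcaf12 (0.987). The closest to Arrb1 were 5031439G07Rik (0.995), Tyrobp (0.995) and Rara (0.993), and to Arrb2 Col27a1 (0.989), P3h1 (0.988) and Cenpb (0.986). Grk4, with its few counts, came closest to Zrsr1 (0.967), Atxn1l (0.894) and Snx13 (0.893). No gene was among the first 3 of more than 1 member.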

How the data were processed

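RNA was sequenced with a stranded mRNA kit. According to the study's methods, the authors used the snakePipes 2.1.0 mRNA-seq workflow, aligned to mm10 with STAR 2.7.3a and counted with featureCounts 2.0.0; annotation release and strand setting are not given in the sources used here. The authors deposited whole-number counts of reads per gene, without normalization, in 1 table per stimulation. Between 0.0683% and 0.0970% of counts lay on IDs without a name in GENCODE M21.

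Counts were analysed with edgeR 4.0.16 (R 4.3.3): TMM scaling, filterByExpr, glmQLFit, glmQLFTest and Benjamini-Hochberg adjustment over all genes tested. Genotypes were compared within each table; responses to LPS and the interaction came from 1 fit of all 8 libraries, which also gave the CPM. Fits were tested on simulated data. TPM and sequence comparisons used Python 3.11.15 with Biopython 1.88 and M21 transcripts. Alternatives were DESeq2 1.42.0, other scalings, filters and designs, a coefficient of variation of 0.4, a log2 fold change of at least 1 and leaving out each library.

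The members and gene lists were chosen with earlier results of these data known. Named were all members, up to 2 genes with the largest change in each direction per list and comparison among those past the threshold (and the untested genes of the visual and inhibitor lists), and the 3 genes most correlated with each member. A further list of cell type markers is not reported here.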

Additional observations from a re-analysis of the deposited data

Results flagged for a closer look

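For 4 genes the difference between 3xGrk-/- and WT cells changed with LPS at an adjusted p under 0.05, by the interaction term of the edgeR fit of all 8 libraries, in which 16.5% of 12541 genes had a more positive and 16.0% a more negative value. The difference of log2 fold changes, LPS-stimulated minus unstimulated, was −0.78 for Grk2, −0.52 for Grk5, −0.35 for Grk6 and 0.45 for Arrb1. In the genotype comparisons within each stimulation, these correspond to −1.11 and −1.89 for Grk2, −0.24 and −0.76 for Grk5, −1.19 and −1.54 for Grk6, and 0.13 and 0.58 for Arrb1. The calls of Grk2 and Arrb1 held in 15 of 15 alternatives that estimate the spread from the libraries, that of Grk5 in 10 (adjusted p up to 0.239) and that of Grk6 in 5 (up to 0.233), and DESeq2 called neither of the latter. Of the macrophage and monocyte markers, 11 of 11 had a more positive value in the interaction, and of the DC markers 6 of 10 a more positive and 1 a more negative one. A more negative value was found for 3 of 8 neutrophil and 1 of 4 eosinophil markers, and for Gata2 of the mast cell and basophil list. Ms4a2 of that list passed the filter on low counts through the WT libraries, in which it is high, and is left out. The part of the cell mix in these 4 values was not tested.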

How the results depend on the processing

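Direction and call of the genotype differences of Grk2, Grk3 and Grk6, and of the interaction values of Grk2 and Arrb1, were the same under every scaling, filter, tool and left-out library tried. The exceptions were a coefficient of variation preset at 0.4, which leaves Grk2 after LPS as the only genotype call among the members, and a minimum log2 fold change of 1, which ends every member's call that is smaller. Depth limits Grk4, at 7 to 19 counts per library.

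DESeq2 called 2828 genes in the unstimulated comparison, 3636 in the LPS-stimulated one and 2457 in the interaction, against 5369, 5754 and 4070. With the preset coefficient of variation, 448, 782 and 72 genes passed in these comparisons, 1110 (of 7561) in the LPS response of WT and 850 (of 6945) in that of 3xGrk-/- cells. With the minimum fold change, in the same order, the counts were 1444, 1984, 1375, 2700 and 2373. Scaling by library size alone turned the LPS response of Grk4 (−0.16), Grk6 (−0.017) and Arrb2 (−0.049) in WT and of Arrb2 (−0.064) in 3xGrk-/- cells. The interaction value of Arrb2 turned to 0.025 with at least 10 counts required in every library, and ran from −0.072 to 0.042 when single libraries were left out. So did the unstimulated genotype difference of Grk4 (−0.78 to 0.10) and its LPS response in WT (−0.14 to 0.33).

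No pairing of the libraries by replicate number was detected, as correlations of same-numbered deviations lay between −0.0184 and 0.0327. With 2 libraries per group that differ little, a shared culture or animal could go unseen. A fit with a replicate block called 5292, 5654, 7438, 6793 and 3884 genes for the genotype comparisons without and with LPS, the LPS responses of WT and 3xGrk-/- cells and the interaction.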
